A study of Caenorhabditis elegans with 10 samples.

Results

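Of the 10308 autosomal peaks of accessible chromatin listed for larval stage 3 (L3) worms, 1074 had no counterpart in the lists for early embryos (EE) or young adults (YA), and these L3-only peaks are described here. An L3 peak was counted as L3-only when no EE or YA peak overlapped it by at least 0.5 of the length of either peak, and peaks on chromosome X and on mitochondrial DNA were left out. The lists of the 3 stages hold 55893 peaks in all. The L3-only peaks made up 10.4% of the autosomal L3 peaks, against 12.8% of the L3 peaks on chromosome X by the same rule. The count depends on the length of the other lists: with the EE and YA lists cut to as many peaks as the L3 list, by the peak caller's confidence, 2147 autosomal L3 peaks (20.8%) had no counterpart. All worms were of the wild-type N2 strain, grown at 20 °C. Chromatin was assayed by ATAC-seq, in which a transposase cuts and tags open DNA, in nuclei from whole worms: L3 larvae at 36 h after egg lay, early embryos, and young adults at 57 h, with 3 libraries per stage and 1 input library of genomic DNA. For each stage the libraries had been pooled into 1 list of peaks on the ce10 genome. Each peak thus carries 1 value per stage list and no spread between replicates. From these lists no difference between stages could be tested. The paper tested peaks for change from EE to L3 and from L3 to YA, and called far fewer in the second step. Those results were not used here, so an L3-only peak is not a peak with a tested change. Intervals are exact 95% intervals (Clopper-Pearson for shares, order statistics for medians) and cover counting error among peaks only. By the read numbers in the supplement, L3 was sequenced least of the stages and a single L3 library held most of the L3 reads, while the lists themselves hold no reads. In whole worms, a site open in few cells and a site opened weakly in many cells cannot be told apart.

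Accessible sites in C. elegans are mostly promoters and enhancers, short stretches freed of nucleosomes where transcription factors bind. The third larval stage lies between embryonic patterning and reproduction: the hypodermis, the epithelium that secretes the cuticle, prepares repeated moults, the vulva is being specified and the gonad arms grow while the germ line proliferates. The autosomes of the worm have gene-dense centres with little recombination, flanked by arms with more recombination and more repeats. Which L3-only peaks are promoters could not be asked here, since no gene annotation of the ce10 build was used.

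The L3-only peaks were mostly among the weaker peaks of the L3 list. Their fold enrichment, the ratio of reads at the summit to the local background, had a median of 2.54 (interval 2.5 to 2.6; range 1.41 to 7.67), against a median of 3.15 (3.11 to 3.2; range 1.27 to 21.3) in the other 9234 autosomal L3 peaks. Only 12 of the 1074 L3-only peaks, or 1.12%, reached a fold of 5, against 22.8% of the other peaks. Nearly all were well past the threshold of the peak caller: 1068 of them had a −log10 q, the peak caller's confidence, of 5 or more, with a median of 23.3 against 43 in the other peaks, and 270 of them (25.1%) lay above the median fold of the whole L3 list, 3.08. A lower fold was not particular to L3. Peaks found in EE only had a median fold of 1.94 against 2.33 in the other autosomal EE peaks. Those found in YA only had 2.24 against 2.9 in the other autosomal YA peaks.

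When the whole L3 list was cut by fold into 10 bins of equal size, bin 1, with the highest folds, held 1 L3-only peak among 982 autosomal peaks (0.102%, 0.00258 to 0.566%) and bin 2 held 8 of 1020 (0.784%). The share was 4.13% in bin 3, 8.78% in bin 4 and 12.8% in bin 5. In bins 6 to 10 it was between 14.4% and 16.5%, with 181 of 1100 in bin 8 and 156 of 1075 (14.5%, 12.5 to 16.8%) in bin 10. The share thus climbed over the first 5 bins, and the intervals of bins 6 to 10 overlap each other. Each L3-only peak had been chosen by its absence from the other lists, which uses the same peak calls, so these values describe the peaks and test nothing.

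The L3-only peaks were narrow, with a median width of 242 bp (238 to 246 bp) against 291 bp (288 to 293 bp) in the other autosomal L3 peaks. At least 400 bp was reached by 34 L3-only peaks (3.17%) and by 19.7% of the others, while 21.7% of the L3-only peaks and 11.3% of the others were under 200 bp. Together the L3-only peaks covered 271 kb, 8.48% of the bases in autosomal L3 peaks. Width falls with fold in the L3 list, but within each of the 10 bins the L3-only median was below that of the others. Bins 1 and 2 held only 1 and 8 L3-only peaks. The bins match fold only roughly: bin 1 runs from 6.95 to 21.3, and its L3-only peak had a fold of 7.67. The medians were 276 bp in the L3-only peaks and 364 bp in the others in bin 2, 266 and 308 bp in bin 4, 273 and 288 bp in bin 5 and 202 and 232 bp in bin 10. Summits sat in the middle of the peaks in both groups, at a median of 49.5% of the width in the L3-only peaks and 49.6% in the others. A smaller width was not particular to L3 either. Peaks found in EE only had a median of 219 bp against 264 bp in the other autosomal EE peaks. Those found in YA only had 243 bp against 294 bp in the other autosomal YA peaks.

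**Figure D1:**
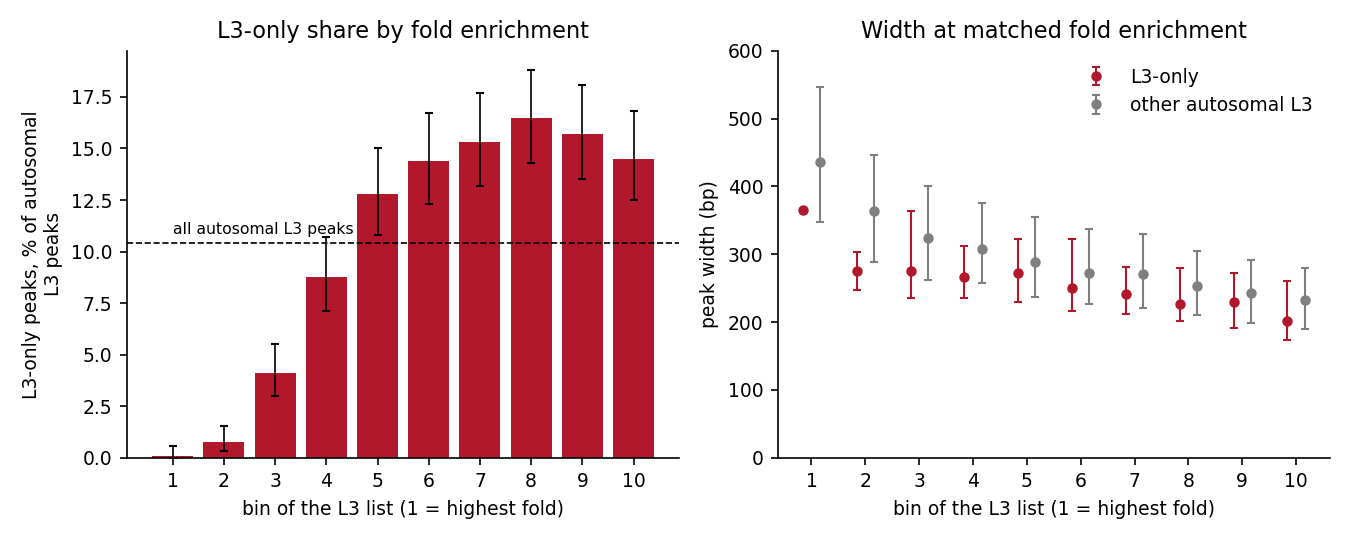
Left: L3-only peaks as a percentage of the autosomal L3 peaks in each of 10 bins of the L3 list by fold enrichment (bars, exact 95% intervals; dashed line, 10.4% over all autosomal L3 peaks). Right: median peak width in bp in the same bins for L3-only peaks (red) and the other autosomal L3 peaks (grey). Bars there run from the lower to the upper quartile. The share is 0.102% in bin 1 and 14.4% in bin 6. The L3-only median width is the lower one in all 10 bins, with 1 L3-only peak in bin 1 and 8 in bin 2.

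The strongest L3-only peak was chrII:3054650-3055014, 365 bp wide, with a fold of 7.67 and rank 1015 of 13040 in the L3 list. It was isolated: the nearest EE peak was 5865 bp away, the nearest YA peak 6040 bp and the nearest other L3 peak 6464 bp. The next were chrIII:12841274-12841587 with a fold of 6.36 and chrV:2281587-2281886 with a fold of 6.17, whose nearest EE peaks were 900 and 2356 bp away. Those ranked 4 and 5 among the L3-only peaks, chrIII:6797974-6798162 (5.52) and chrIII:6798165-6798416 (5.45), lie 2 bp apart, so the strongest 5 peaks mark 4 places.

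The other 5 of the 10 strongest differed in their surroundings. The peaks chrII:10785131-10785399 (fold 5.44) and chrII:873477-873714 (fold 5.25) each had an EE peak and a YA peak within 100 bp, at 37 and 46 bp for the first and at 80 and 83 bp for the second, and they counted as L3-only without standing alone. The peak chrII:913318-913552 (fold 5.1) had a YA peak at 789 bp and no other L3 peak for 22983 bp. The peaks chrII:4888969-4889351 (fold 5.25) and chrIV:11961992-11962275 (fold 5.22) were at most 70 bp from another L3 peak, and their nearest YA peaks were 1142 and 961 bp away. Of these 10 peaks 5 are on chromosome II, which holds 22.7% of all L3-only peaks.

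The 5 widest L3-only peaks measured 469 to 515 bp, and their folds ranged from 2.42 to 5.08. The widest, chrIII:7299959-7300473, had a fold of 2.42 and lay 200 bp from a stronger L3 peak. The peak chrI:10145110-10145578 was both among the widest, at 469 bp, and among the most isolated, with a fold of 5.01 and no EE or YA peak within 16550 bp. The most isolated of all was chrIV:16735959-16736244 (286 bp, fold 2.62), with 39729 bp to the nearest EE peak and 41021 bp to the nearest L3 peak. It was followed by chrV:5891249-5891517 (fold 3.9, 22610 bp to the nearest peak of any list), chrIV:10442561-10442847 (fold 2.15, 17109 bp) and chrII:9430230-9430520 (fold 2.92, 15952 bp). The folds of these 5 isolated peaks thus ranged from 2.15 to 5.01.

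Few L3-only peaks came close to the overlap threshold. Of the 1074 peaks, 996 did not overlap any EE or YA peak, 33 overlapped an EE peak only, 33 a YA peak only and 12 both, and in 9 the larger overlap was between 40% and 50%. The L3-only peak nearest the threshold was chrIII:11475308-11475632 (fold 2.87), with an overlap of 49.8% with an EE peak, followed by chrII:2663081-2663409 with 48%, chrI:4407110-4407404 with 47.8%, chrII:13211556-13211822 with 45.3% and chrI:527296-527528 with 44.2%, the last with a YA peak. Just outside it were chrII:3245600-3245886 with 50.9%, chrI:14864836-14865005 with 51.2%, chrV:16593257-16593610 with 51.4%, chrI:14615871-14616083 with 51.6% and chrI:379119-379339 with 52%. Across the threshold, 27 other L3 peaks had a largest overlap under 60%, while 7424 had an EE or YA peak that contained them or lay within them.

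The L3-only peaks lay in the centres of the autosomes more often than the other L3 peaks. With each autosome cut into 3 equal parts, the centre held 435 of the 1074 L3-only peaks, 40.5% (37.5 to 43.5%), against 34.6% (33.6 to 35.6%) of the other autosomal L3 peaks. The left arms held 31% of the L3-only peaks and 33.8% of the others, and the right arms 28.5% and 31.6%. Counted the other way, 12% (10.9 to 13.1%) of the L3 peaks in the centres were L3-only, against 9.65% (8.68 to 10.7%) in the left arms and 9.48% (8.49 to 10.5%) in the right arms.

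The centre shares of L3-only and other peaks lay further apart at lower fold. In the 5 lower bins of the L3 list, 40.9% (37.5 to 44.4%) of the L3-only peaks and 31.8% (30.4 to 33.2%) of the others were in the centres. In the 5 upper bins the shares were 39.3% (33.4 to 45.4%) and 37.2% (35.8 to 38.6%), whose intervals overlap. The centre share of the L3-only peaks thus hardly moved with fold, while that of the other peaks was lower among weak peaks.

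The chromosomes differed. On chromosome IV, 13.8% (11.2 to 16.6%) of the L3 peaks in the centre were L3-only, against 7.14% (5.47 to 9.14%) in the left arm and 8.92% (6.63 to 11.7%) in the right arm, and the intervals of the centre and the left arm do not overlap. On chromosome V the centre stood at 14% and the arms at 11.8% and 10.8%, and on chromosome II at 12.6% against 10.5% and 11.2%, with overlapping intervals on both. On chromosome III the centre, at 9.5%, was level with the arms, at 9.7% and 9.22%. On chromosome I the left arm (9.35%) was level with the centre (9.45%) and the right arm stood at 6.94%, with overlapping intervals. The centre thus stood farthest above the arms on chromosome IV and not above both arms on chromosome III.

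Chromosome V, the longest autosome, held 278 L3-only peaks, 25.9% (23.3 to 28.6%) of them, against 21.3% (20.4 to 22.1%) of the other L3 peaks. As a share of each chromosome's L3 peaks, the L3-only peaks made up 12.4% on V, 11.5% on II, 9.8% on IV, 9.46% on III and 8.6% (7.41 to 9.92%) on I. The intervals of V (11.1 to 13.8%) and I do not overlap, and those of neighbours in this order do. The median fold of the L3-only peaks was between 2.51 (2.42 to 2.62) on V and 2.59 (2.5 to 2.69) on IV, with overlapping intervals. Their median width was 232 bp (224 to 241 bp) on III and 254 bp (242 to 266 bp) on V, the lowest and the highest, whose intervals do not overlap. Widths of the other L3 peaks were not computed by chromosome, so this spread may not be particular to the L3-only peaks.

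**Figure D2:**
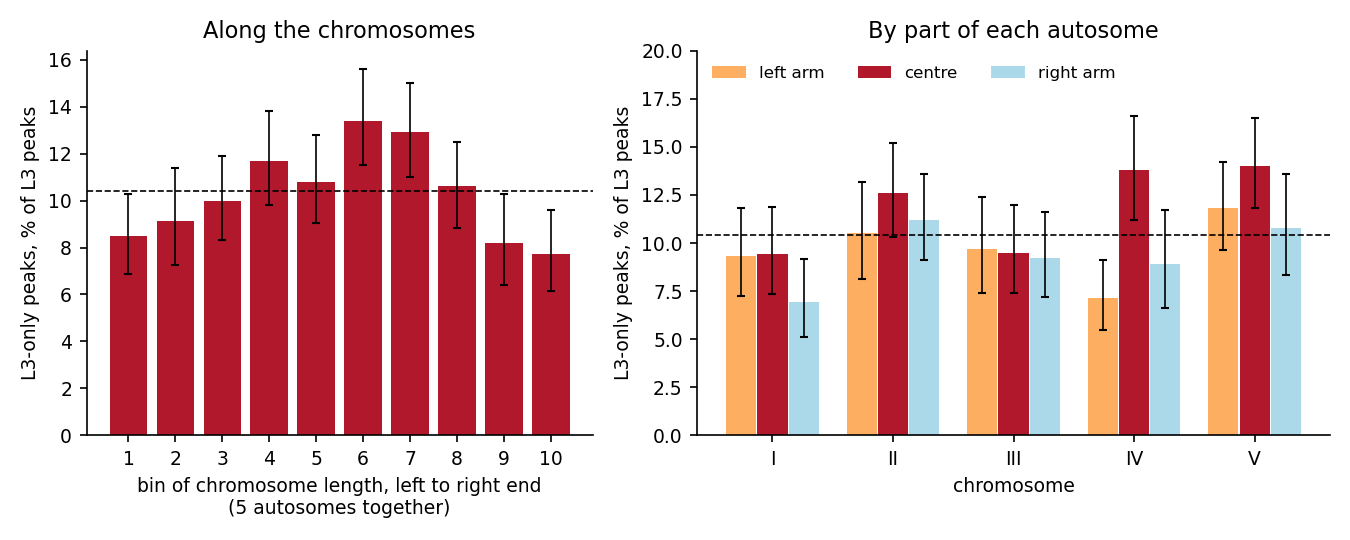
L3-only peaks as a percentage of L3 peaks, with exact 95% intervals. Left: in 10 bins of chromosome length from the left to the right end, 5 autosomes together, highest in bin 6 (13.4%) and lowest in bin 10 (7.74%); right: by part of each autosome (left arm, centre, right arm), with the widest spread on chromosome IV; dashed lines, 10.4% over all autosomal L3 peaks.

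At a finer scale the L3-only peaks were spread widely. Of 167 blocks of 500 kb that held an autosomal L3 peak, 165 held at least 1 L3-only peak, with a median of 6. The most were in chrII:8500001-9000000, with 20 L3-only peaks among 97 L3 peaks (20.6%, 13.1 to 30%), then chrII:4500001-5000000 with 18 of 94, chrII:9000001-9500000 with 16 of 84, chrV:13000001-13500000 with 16 of 85 and chrV:14500001-15000000 with 16 of 80. Both blocks between 8500001 and 9500000 on chromosome II are neighbours in the centre of that chromosome.

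Among the 162 blocks with at least 20 L3 peaks, the L3-only share had a median of 9.75%. It was highest in chrV:3000001-3500000, at 10 of 39 peaks (25.6%, 13 to 42.1%), chrV:12500001-13000000 (22.8%), chrII:8500001-9000000 (20.6%), chrI:8500001-9000000 (20.5%) and chrV:14500001-15000000 (20%). It was lowest in chrI:13500001-14000000, with 0 of 41 peaks, for which the interval reaches 8.6%, and in chrIII:13000001-13500000, with 1 of 82. Of the 162 blocks, 9 had an interval above the 10.4% over all autosomal L3 peaks and 4 an interval below it. The interval of chrI:8500001-9000000 (9.8 to 35.3%) included that share.

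The median distance from edge to edge to the nearest EE or YA peak was 777 bp (685 to 901 bp; quartiles 158 and 2132 bp), which the rule itself keeps above 0 for most of them. This median moved with the rule: it was 285 bp when an overlap of 0.5 of both peaks was needed to share a peak and 1031 bp with the EE and YA lists cut to the L3 length. It was 0 in 79 peaks (7.36%), which overlapped or adjoined such a peak, above 0 and up to 500 bp in 350 (32.6%) and up to 1000 bp in a further 170 (15.8%). It was above 1000 and up to 5000 bp in 375 (34.9%) and more than 5000 bp in 100, of which 24 (2.23%) were farther than 10000 bp. The median distance was 1090 bp to the EE list and 1432 bp to the YA list, which hold 27694 and 15159 peaks. The nearest peak was an EE peak for 538 L3-only peaks (50.1%), a YA peak for 474 (44.1%), and both were equally near for 62.

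The L3-only peaks farther from other stages were stronger. Their median fold was 2.37 (2.24 to 2.48) at 0 bp, 2.44 up to 500 bp, 2.49 up to 1000 bp, 2.63 (2.56 to 2.76) up to 5000 bp and 2.9 (2.73 to 3.14) beyond 5000 bp. Median widths were 249, 236, 247, 241 and 259 bp in the same order, with no steady trend. The share in the centres was 39.2% at 0 bp and 50% (39.8 to 60.2%) beyond 5000 bp, with overlapping intervals. A split peak is one of several that the authors cut from 1 called region with more than 1 summit, and 83.5% (73.5 to 90.9%) of the L3-only peaks at 0 bp were split, against 10% (4.9 to 17.6%) of those beyond 5000 bp. In all, 475 L3-only peaks (44.2%) had no EE or YA peak within 1 kb, 72 had no peak of any of the 3 lists within 5 kb and 18 none within 10 kb.

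By the same rule, 11027 autosomal EE peaks (50.1% of 21999) and 2224 autosomal YA peaks (18.0% of 12347) were found in their own stage only. With all lists cut to the length of the L3 list, the stage-only shares were 36.5% in EE, 20.8% in L3 and 25.3% in YA. With the lists as deposited, the L3-only peaks lay as far from the other stages' peaks as the YA-only peaks, at medians of 777 bp and 775 bp (716 to 850 bp), and closer than the EE-only peaks, at 1621 bp (1545 to 1684 bp). With lists of equal length the medians were 1031 bp (960 to 1126 bp) in the L3-only, 1230 bp (1125 to 1384 bp) in the YA-only and 1916 bp (1802 to 2032 bp) in the EE-only peaks. With the lists as deposited, the centre share was 40.5% in the L3-only peaks, 31.8% (30.9 to 32.7%) in the EE-only peaks and 33.8% (31.8 to 35.8%) in the YA-only peaks, and in the other peaks of the EE and YA lists it was 32.7% and 33%. At equal length it was 39.4% (37.3 to 41.5%) in the L3-only, 30.9% (29.4 to 32.4%) in the EE-only and 32.2% (30.4 to 34%) in the YA-only peaks. In median width the L3-only peaks (242 bp) were level with the YA-only peaks (243 bp) and wider than the EE-only peaks (219 bp). The whole lists stood in the same order, with median widths of 286 bp in L3, 286 bp in YA and 240 bp in EE.

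**Figure D3:**
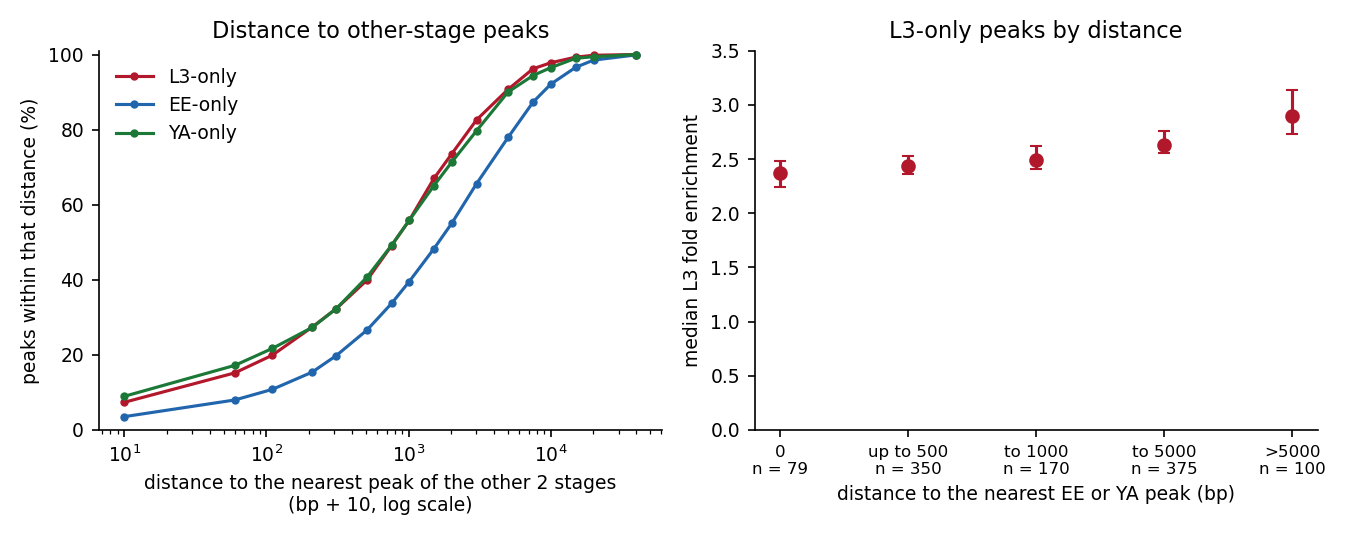
Left: cumulative percentage of L3-only, EE-only and YA-only autosomal peaks within a given distance of the nearest peak of the other 2 stages (log axis, 10 bp added); the L3-only and YA-only curves run together and the EE-only curve lies to the right. Right: median fold enrichment of L3-only peaks by distance to the nearest EE or YA peak with exact 95% intervals, between 2.37 at 0 bp and 2.9 beyond 5000 bp.

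Within the L3 list itself, L3-only peaks were somewhat farther from their neighbours. The median distance to the nearest other L3 peak was 1073 bp (963 to 1234 bp), against 710 bp (662 to 749 bp) for the other autosomal L3 peaks. The lower quartile was 150 bp in the L3-only peaks and 2 bp in the others. Of the L3-only peaks, 147 (13.7%) adjoined another L3 peak with no gap. Fewer of them were split peaks, 22.4% (20 to 25.1%) against 32.4% (31.4 to 33.3%) of the others. The 241 split L3-only peaks came from 210 called regions, and in 96 of these regions another listed part had a counterpart in EE or YA. In 70 of the 96 the L3-only part had a lower fold than every such part, with medians of 2.42 for the L3-only parts and 3.08 for the rest. Against the nearest L3 peak with a counterpart, at any distance, the L3-only peak had the lower fold in 66.3% to 74.7% of cases, with 74.7% (64.5 to 83.3%) where the peaks touched and 66.3% (62.5 to 69.9%) beyond 1000 bp, whose intervals overlap. L3-only peaks were weaker over the whole list as well, with a median fold of 2.54 against 3.15. The share for pairs taken anywhere in the list was not computed, so nothing particular to neighbours is shown.

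L3-only peaks tended to neighbour each other. The nearest L3 peak was also L3-only for 212 of the 1074, 19.7% (17.4 to 22.2%), against 8.75% (8.18 to 9.35%) for the other autosomal L3 peaks and 10.4% L3-only peaks in the list. With lists of equal length, where 20.8% of the peaks were L3-only, the shares were 30.4% (28.5 to 32.4%) for the L3-only and 17.6% (16.8 to 18.4%) for the other peaks. With adjoining peaks joined the L3-only share was 15.9% (13.7 to 18.4%), and the share for the other peaks was not computed. Where the neighbour came from another called region, so that splitting could not make the pair, the shares were 16.8% (14.5 to 19.4%) and 10.3% (9.59 to 11%). The share was 24.2% for neighbours within 1 kb and 15.6% for those farther away, and 16.8% in the left arms, 21.8% in the centres and 19.9% in the right arms, with overlapping intervals among the parts. For EE-only peaks it was 62.8%, against 33.6% for the other autosomal EE peaks, and for YA-only peaks 36.4%, against 13.6% for the other autosomal YA peaks, in lists where peaks of the stage alone were a larger share.

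**Figure D4:**
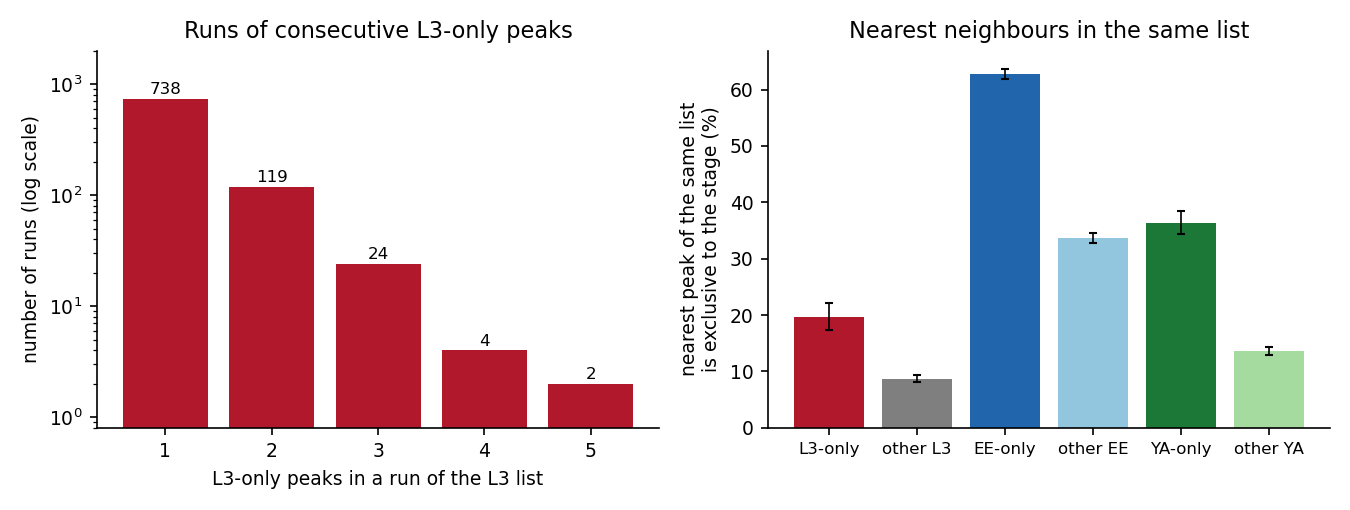
Left: number of runs of consecutive L3-only peaks in the L3 list by run length, on a log axis; 738 runs are single peaks and 2 have 5. Right: percentage of peaks whose nearest peak in the same list is also found in that stage only, with exact 95% intervals, for L3-only peaks and the other autosomal L3 peaks (19.7% and 8.75%), EE-only and other EE peaks, and YA-only and other YA peaks.

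Long runs and large clusters were nevertheless rare. In the order of the L3 list, 738 L3-only peaks stood between peaks with counterparts, 119 runs had 2 L3-only peaks, 24 had 3, 4 had 4 and 2 had 5. With L3-only peaks joined where their edges were at most 5 kb apart, there were 906 groups, of which 775 were single peaks, 99 pairs, 28 trios, 3 groups of 4 and 1 of 5. Thus 299 L3-only peaks (27.8%) lay within 5 kb of another, against 84.2% of the EE-only and 47.7% of the YA-only peaks, which are more numerous. The median distance between an L3-only peak and the next was 17.8 kb. Split parts of 1 called region count as separate peaks in these runs and groups. In 26 called regions with 2 or more listed parts, all of these parts were L3-only.

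The largest cluster, chrV:14502141-14510997, spans 8857 bp and held 5 L3-only peaks among 9 L3 peaks, 8 EE peaks and 5 YA peaks. Its L3-only peaks were weak, with folds from 1.82 to 2.58, and were interspersed with peaks that the other stages share. Among them chrV:14505745-14506035 and chrV:14506036-14506308 are adjoining split peaks. The 3 clusters of 4 were chrII:8952043-8960067 with 5 L3 peaks, 1 EE peak and 1 YA peak, chrIII:7298080-7305843 with 5, 5 and 1, and chrV:3394642-3402168 with 4 L3 peaks and neither an EE nor a YA peak. The widest L3-only peak of all lies in the cluster on chromosome III, beside a shared peak with a fold of 6.04. The first trio in chromosome order, chrI:527296-530198, held 3 L3-only peaks among 5 L3 peaks.

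The longest runs differed in their surroundings. One run of 5 on chromosome V, chrV:3394642-3410014, extends the cluster chrV:3394642-3402168 over 15373 bp without any EE or YA peak in between, and its peaks had folds of 2.6, 2.32, 3.29, 2.24 and 4.03 from left to right. The last of them lies 43 bp from an L3 peak with a fold of 8.89 that the other stages share. It falls in the block with the highest share of L3-only peaks. The other run of 5, chrII:14910073-14946752, spans 36680 bp with 3 EE peaks and 1 YA peak in it. A run of 4, chrV:5393375-5409164, had folds from 2.48 to 3.82 and likewise no EE or YA peak over 15790 bp. The run of 4 at chrIV:9929428-9944663 had 1 EE peak and no YA peak over 15236 bp, and was made of adjoining pairs of split peaks. The remaining runs of 4 held peaks of both other stages. There were 4 EE and 2 YA peaks in chrII:4767756-4806154, and 5 EE and 2 YA peaks in chrV:8252564-8288762.

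**Figure D5:**
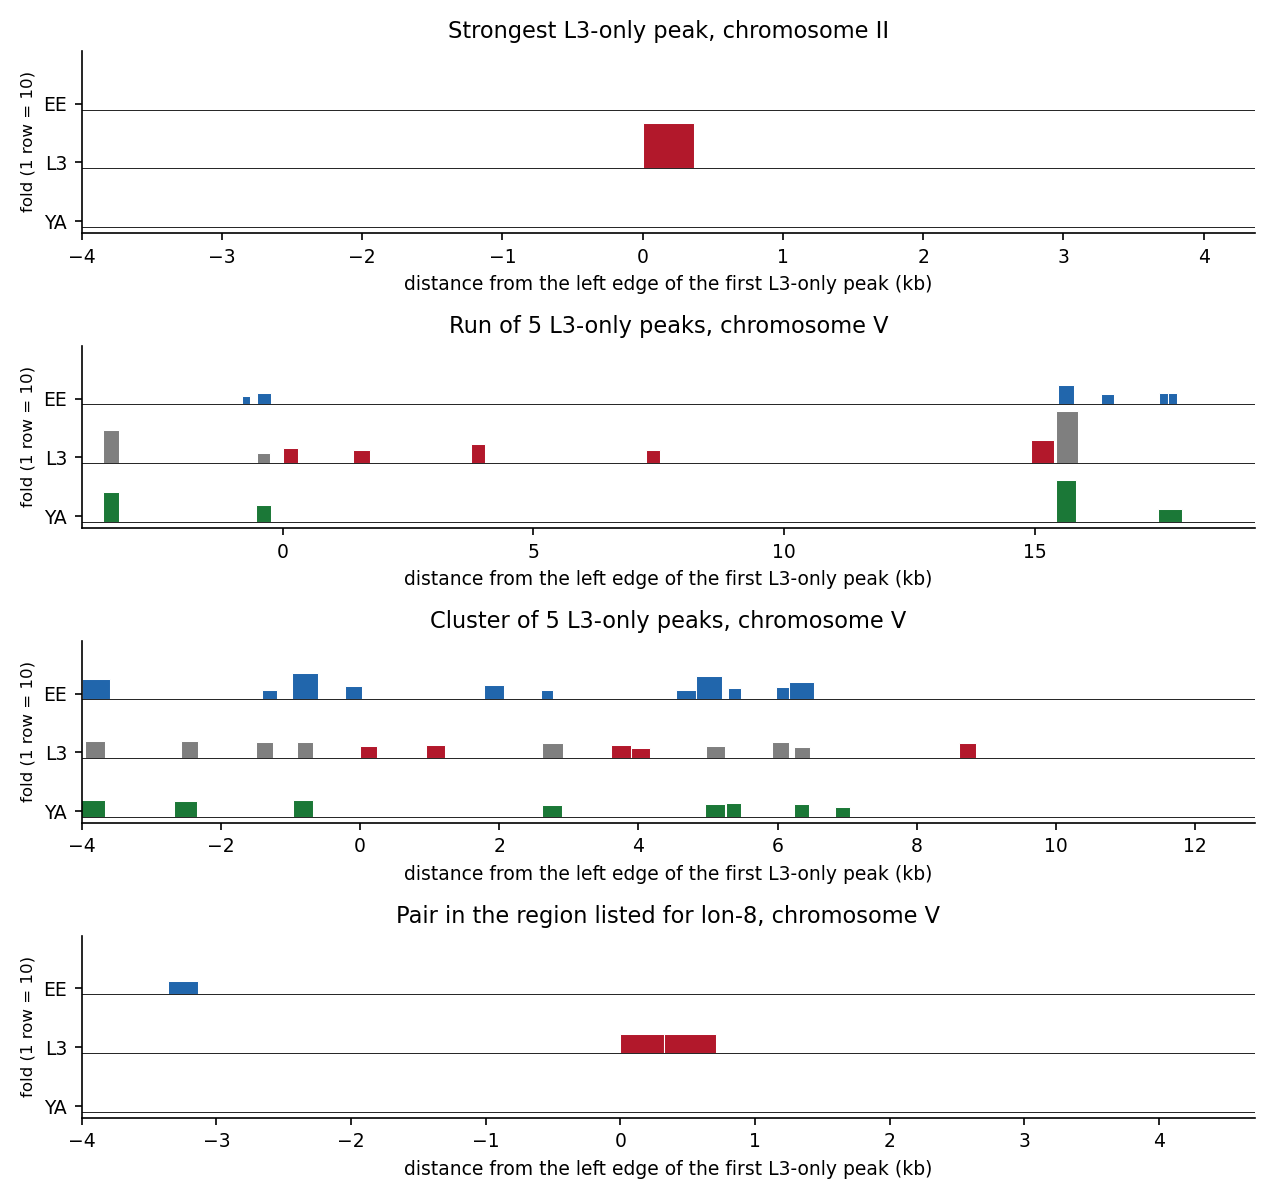
Peaks of the EE, L3 and YA lists (rows) at 4 places, drawn to scale by distance in kb from the left edge of the first L3-only peak; box height is the fold enrichment within its own list, 1 row standing for 10, and L3-only peaks are red. The strongest L3-only peak has no other peak within 4 kb, the run of 5 lies in a gap of the EE and YA lists, the cluster of 5 is interspersed with peaks of all stages, and the pair in the lon-8 region has 1 EE peak within 4 kb.

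Gene names could be given for a few L3-only peaks, from 24 autosomal entries of a supplementary table of putative regulatory regions and from 5 autosomal plot windows in the code supplement. The entry for lon-8 and Y59A8B.19 was filled by a pair of adjoining L3-only peaks, chrV:18003711-18004033 (323 bp, fold 3.2) and chrV:18004034-18004420 (387 bp, fold 3.18). The gene lon-8 is known to act in the control of body length, and Y59A8B.19 is the next protein-coding gene in the RefSeq gene order. The nearest EE peak was 3136 bp from the pair, and the pair made up 2 of the 4 L3 peaks within 10 kb of the entry. The entry for Y48G8AL.15 was filled by the L3-only peak chrI:1255919-1256385 (467 bp, fold 3.78), which had an EE peak at 2192 bp and another L3 peak at 2161 bp. In the RefSeq gene order Y48G8AL.15 is followed by grh-1, which encodes a Grainyhead transcription factor. Both entries share their edges with the listed peaks and are no independent measure of them.

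Near 5 other entries 1 L3-only peak each lay within 10 kb. It was 1457 bp from the entry for F23C8.13 and zwl-1, a kinetochore gene, with a fold of 2.31, and 1574 bp from the entry for W08F4.7 and mlt-8, a gene known from moulting, with a fold of 2.39. It was 6037 bp from the entry for C15H7.3 and gei-13 (fold 2.3), 8132 bp from that for Y73B6A.1 (fold 2.95) and 9335 bp from that for ergo-1, which encodes an Argonaute protein (fold 3.69). Within 10 kb of the entry it was 1 of 3 L3 peaks for zwl-1 and 1 of 6 for mlt-8. It was 1 of 9 for gei-13, 1 of 1 for Y73B6A.1 and 1 of 3 for ergo-1. Over all autosomal L3 peaks, 10.4% were L3-only. The peaks near mlt-8, chrII:572304-572563, and gei-13, chrIII:9639896-9640293, were also the L3-only peaks in the plot windows of these genes, 1 of 2 L3 peaks in the first and 1 of 9 in the second. At these 5 places the L3-only peak was thus outside the entry itself.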

How the data were processed

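ATAC-seq libraries had been made from whole worms, 3 each from EE, L3 and YA, beside 1 input library. Per the labels and the paper's methods, the authors mapped reads to ce10 with Bowtie2 2.1.0, removed duplicates with Picard, moved read ends to the insertion site, called MACS peaks at a q of 0.05, split neighbouring summits, favoured peaks seen consistently across replicates and removed blacklisted regions and input signal. The names of the lists state merged replicates; the rule for consistency across replicates is not given in the sources used here, so a site missing from a list may have failed that rule. In the deposited lists the fold enrichment is a ratio to local background, and the authors' −log10 q comes from the same comparison; −log10 p and the display score of the authors' lists were not used. Both were used within a list only. The summit position deposited by the authors placed a peak in a part of a chromosome.

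Overlaps, distances and intervals were computed in Python 3.11.15 with pandas 2.3.3 and SciPy 1.17.1 and tested on simulated data. The overlap rule in bedtools 2.31.1 gave the same 1074 peaks and distances. Chromosome length was the largest peak end in any list. No test was run, as pooled lists have no replicates. The peaks named were the 10 of highest fold, the 5 widest, the 5 farthest from any peak, 5 on each side of the threshold, the 5 largest clusters, the longest runs, 5 blocks by number and by share, and those within 10 kb of a named region or in a plot window; the lowest blocks were added after the values were seen. Members and lists were chosen with earlier results of these data known. Overlap rules, −log10 q minimums, list lengths and joined peaks were varied. Motifs and sequences were not analysed, since no ce10 genome was used here.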

Additional observations from a re-analysis of the deposited data

How the results depend on the processing

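The 7 results were recomputed under their alternatives, which gave 50 values, and 39 of them stayed within the interval of the reported value or, for the number of L3-only peaks, within 1.5 times. The −log10 q minimums left 1068 and 1072 L3-only peaks, so the results could hardly move under them. With the EE and YA lists cut to the length of the L3 list by −log10 q, the number of L3-only peaks was 2147 instead of 1074, their median fold 2.39 instead of 2.54, their median distance to the nearest EE or YA peak 1031 bp instead of 777 bp, and the share with an L3-only nearest neighbour 30.4% instead of 19.7%. That distance was 920 bp when any overlap of 1 bp counted, 285 bp when 0.5 of both peaks had to overlap (1468 L3-only peaks), 970 bp when summits within 300 bp counted and 938 bp with adjoining peaks joined. Cut to the L3 length, the EE list held 3719 EE-only peaks instead of 11027 and the YA list 2684 YA-only peaks instead of 2224, an alternative chosen after seeing the data. The neighbour share was 22.6% with 0.5 of both peaks and 15.9% with adjoining peaks joined. With the middle 50% of each autosome as its centre, the centre held 62.9% of the L3-only peaks, against 53.8% of the other autosomal L3 peaks. The cause was not tested beyond the construction of each alternative. No paired analysis was possible because each stage is given as 1 list from pooled replicates, and for the same reason no replicate could be left out. The lists hold no reads, so the depth behind a single peak is unknown.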

Other observations

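On chromosome X, 350 of 2730 L3 peaks (12.8%) had no EE or YA counterpart by the same rule, and both L3 peaks on mitochondrial DNA had one. Of the autosomal L3 peaks, 2404 (23.3%) had no EE counterpart and 2766 (26.8%) had no YA counterpart, so that many more peaks were shared with a single other stage than with none.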
